A study of Mus musculus with 26 samples.

Results

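The interferon response genes described here are 44 genes that cells switch on after type I, II or III interferon, taken from the table of ventricular counts by gene symbol, out of 40413 genes in that table. All 44 were found, and 43 passed the filter on low counts and were tested. Oas3, a sensor of double-stranded RNA, did not pass: it had at most 27 counts in any of the 25 libraries used. Its highest level was 0.702 CPM, the unit used below, which scales each count to the size of its library.

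The RNA came from left ventricles of adult mice, as polyadenylated transcripts, in 2 strains: BPH/2J, an inbred line selected for high blood pressure, and BPN/3J, the line selected for normal blood pressure from the same base population. The mice had received vehicle or Cmpd17b, a small-molecule agonist of formyl peptide receptors, for 28 days. The daily dose of Cmpd17b was 50 mg/kg, given into the peritoneal cavity. No closer age is stated. The 25 libraries, each from a mouse with its own identifier, comprised 6 from BPH/2J mice on Cmpd17b (BPH_Cmpd17b), 7 from BPH/2J mice on vehicle (BPH_vehicle), 5 from BPN/3J mice on Cmpd17b (BPN_Cmpd17b) and 7 from BPN/3J mice on vehicle (BPN_vehicle). The comparisons ask how the strains differ on vehicle and on Cmpd17b, and what Cmpd17b changed within each strain.

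Interferons bind paired receptor chains at the cell surface. Janus kinases attached to these chains phosphorylate STAT proteins. Type I and III interferons assemble a complex with STAT2 and IRF9 that binds the interferon-stimulated response element (ISRE), and interferon gamma acts mainly through the gamma-activated site (GAS). The induced genes encode transcription factors that extend the response, sensors of foreign nucleic acid, effectors that block viral replication, large GTPases that attack the membranes of intracellular pathogens, and the ubiquitin-like modifier ISG15 with its enzymes. Healthy tissues keep a low, tonic level of many of these transcripts without infection.

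Upstream stretches are shown for genes of the 2 GTPase families and for a pair of classical antiviral genes, since these carry the elements that define the response, and for Xaf1 and Ifi35, the genes with the widest strain differences below. Each line gives the 110 bases before the RefSeq start of the gene, 5′ to 3′ on the gene's strand, from the C57BL/6J reference assembly GRCm38.p6. That assembly is neither BPH/2J nor BPN/3J sequence. Capitals mark matches, on either strand, to the ISRE core, read here as TTTC, any 2 bases and TTTC again.
Gbp3 (chr3:142559934-142560043, plus strand): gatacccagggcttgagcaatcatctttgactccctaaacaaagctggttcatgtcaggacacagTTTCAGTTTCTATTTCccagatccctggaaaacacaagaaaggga
Gbp7 (chr3:142530226-142530335, plus strand): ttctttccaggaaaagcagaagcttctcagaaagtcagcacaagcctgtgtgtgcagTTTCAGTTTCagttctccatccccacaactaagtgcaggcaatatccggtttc
Gbp2 (chr3:142620553-142620662, plus strand): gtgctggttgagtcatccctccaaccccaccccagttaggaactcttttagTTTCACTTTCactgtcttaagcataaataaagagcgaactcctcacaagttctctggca
Igtp (chr11:58199446-58199555, plus strand): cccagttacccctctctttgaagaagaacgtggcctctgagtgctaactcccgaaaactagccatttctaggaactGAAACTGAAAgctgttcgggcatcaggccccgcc
Irgm1 (chr11:48871421-48871530, minus strand): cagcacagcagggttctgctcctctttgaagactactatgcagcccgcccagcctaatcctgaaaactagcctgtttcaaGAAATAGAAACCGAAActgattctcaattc
Isg15 (chr4:156200819-156200928, minus strand): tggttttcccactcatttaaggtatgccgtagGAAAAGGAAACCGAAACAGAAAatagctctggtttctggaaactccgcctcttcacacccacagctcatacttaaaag
Ifit1 (chr19:34640779-34640888, plus strand): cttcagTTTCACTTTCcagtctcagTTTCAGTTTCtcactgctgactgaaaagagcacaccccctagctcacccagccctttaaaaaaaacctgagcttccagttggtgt
Xaf1 (chr11:72301519-72301628, plus strand): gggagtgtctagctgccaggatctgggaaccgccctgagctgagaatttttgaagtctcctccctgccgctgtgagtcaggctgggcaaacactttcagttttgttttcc
Ifi35 (chr11:101448302-101448411, plus strand): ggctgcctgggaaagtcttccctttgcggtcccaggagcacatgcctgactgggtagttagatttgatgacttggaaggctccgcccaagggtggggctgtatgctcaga
The Isg15 stretch held 3 overlapping ISRE matches, those of Gbp3, Irgm1 and Ifit1 held 2 each, and those of Gbp7, Gbp2 and Igtp held 1. In the stretches of Xaf1 and Ifi35 these letters were not present. Over windows of 300 bases, from 250 before to 50 after the start, 33 of the 44 genes matched a symbol in the RefSeq promoter table. An ISRE match was present in 16 of these 33 (48.5%), against 3.99% of all 27025 genes in that table. The GAS letters TTCNNNGAA, which read the same on both strands, were present in 11 of 33 (33.3%), against 9.55% of all genes. Both motifs occurred in the windows of 6 of the 33 (18.2%), against 0.54% of all genes. These matches describe the reference sequence.

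Total counts per library ran from 25476100 to 48648200. The labels put 20 of the 25 libraries in batch 1 and 5 in batch 2, and all 5 BPN_Cmpd17b libraries were in batch 1. The ventricular label was checked against Myh6, the main heavy chain of adult mouse heart muscle, which lay between 13443 and 23505 CPM in these 25 libraries when all 26 libraries were scaled together. On that scale the 26th library, labelled BPH_Cmpd17b replicate 7, had 12.4 CPM of Myh6 and 18930 CPM of Kap, a kidney transcript, and enters no comparison below. Kap was present in the 25 libraries as well, at 0.589 to 125 CPM. Within the 25, BPN_vehicle replicate 7 stood apart from its group for most interferon genes, and BPH_Cmpd17b replicate 4 did so for many. Strain results are therefore also given without BPN_vehicle replicate 7 (24 libraries), and some that turn on BPH_Cmpd17b replicate 4 without that library.

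**Figure D1:**
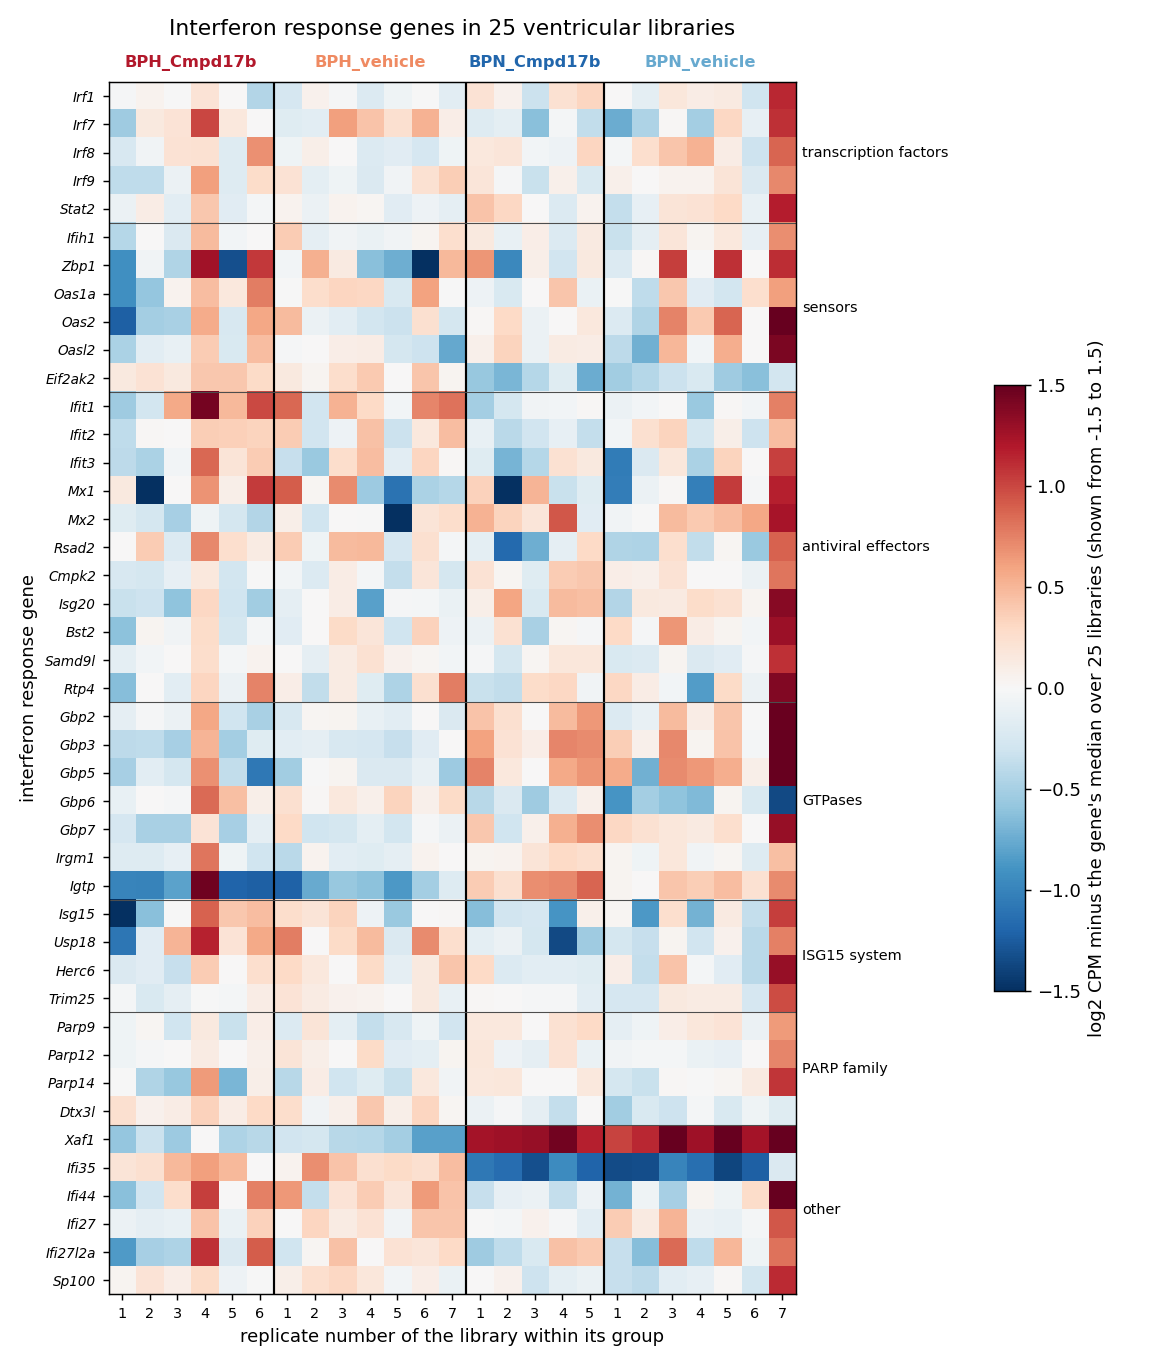
Each row is 1 of the 43 tested interferon response genes, grouped by role, and each column 1 of the 25 libraries; colour gives log2 CPM minus the median of that gene over the 25 libraries, from -1.5 (blue) to 1.5 (red). Xaf1 and Ifi35 separate the strains in opposite directions. BPN_vehicle replicate 7 is the highest of the 25 libraries for 31 of the 43 genes, against 22.6% of all genes tested. BPH_Cmpd17b replicate 4 is the highest in its group for 36, with no share over all genes beside that count.

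On vehicle, hypertensive and normotensive ventricles differed in 9 of the 43 interferon genes, with no common direction. Ifi35, Gbp6, Eif2ak2 and Dtx3l were higher in BPH/2J, and Xaf1, Igtp, Gbp5, Gbp3 and Gbp7 were lower. The share called was 20.9%, and 18.9% of all 15543 genes tested were called in the same comparison (edgeR quasi-likelihood F-test, Benjamini-Hochberg adjusted p under 0.05), so the share among the interferon genes was near the background. The 4 higher genes stand beside 9.16% of all genes called higher and the 5 lower ones beside 9.73% called lower. The median log2 difference over the 43 genes was -0.10, with 12 positive and 31 negative values, beside -0.00 over all genes tested. The median size of the difference, regardless of sign, was 0.29 over the 43 genes and 0.17 over all genes, which were not matched for level. Without BPN_vehicle replicate 7 the median was 0.05, with 24 positive and 19 negative values, so the balance of signs turned on that mouse. In those 24 libraries 8 genes were called, against 24.2% of all genes. Sp100 was added to the higher genes and Gbp7 and Igtp were no longer called. In 4 genes (Eif2ak2, Ifi35, Igtp and Xaf1) the BPH_vehicle and BPN_vehicle libraries did not overlap, and 6.36% of all genes had groups that did not overlap.

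On Cmpd17b the strains differed in 4 of the 43 genes (9.3%), against 14.1% of all genes (edgeR). Ifi35, Eif2ak2 and Dtx3l were higher in BPH_Cmpd17b and Xaf1 was lower, where 7.48% of all genes were called higher and 6.65% lower. These are 4 of the 9 genes called on vehicle, and in each of the 4 the BPH_Cmpd17b and BPN_Cmpd17b libraries did not overlap (12.6% of all genes). With 24 libraries the count was 11, against 20.1% of all genes, though the mouse left out is in neither Cmpd17b group. It was 8 without BPH_Cmpd17b replicate 4 and 8 without replicate 1. Fits that left out 1 mouse of these groups called 1834 to 2066 of all genes. With RLE size factors the count was 5 (3 higher and 2 lower), and with DESeq2 7 (4 higher and 3 lower). DESeq2 called 13 on vehicle (4 higher and 9 lower). Counts over all genes in the RLE and DESeq2 fits are not given here, so these counts have no background beside them. The median difference over the 43 genes was 0.01, with 26 positive and 17 negative values. The comparisons on vehicle and on Cmpd17b use different mice but share 1 estimate of spread and the batch term. In bulk ventricular RNA, fewer cells of a type and less RNA per cell cannot be told apart.

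**Figure D2:**
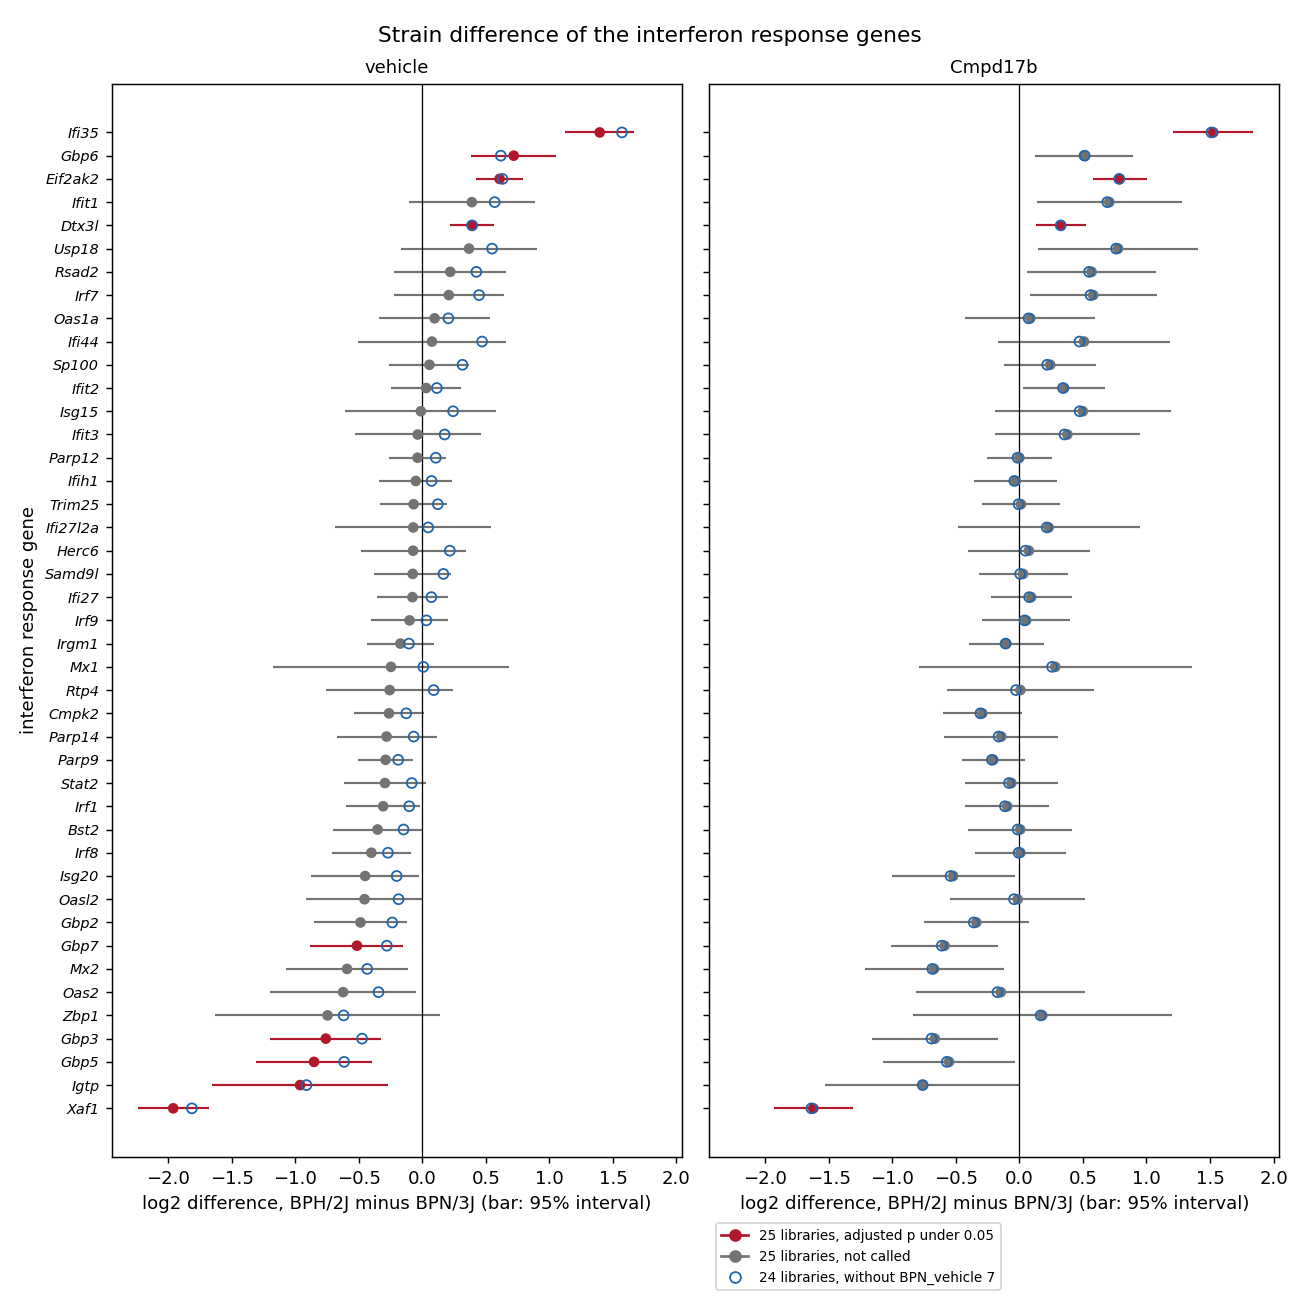
Points are log2 differences, BPH/2J minus BPN/3J, of the 43 tested interferon response genes on vehicle (left) and on Cmpd17b (right) with 25 libraries; bars are 95% intervals, red marks an adjusted p under 0.05, and open circles give the value without BPN_vehicle replicate 7. On vehicle 24 of the 43 open circles lie right of 0, against 12 of the 43 points. Ifi35, Eif2ak2 and Dtx3l are red on the right side of both panels and Xaf1 on the left side of both.

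Among the transcription factors, none of the 5 was called in either strain comparison with 25 libraries, and on vehicle their log2 differences ran from -0.40 to 0.21. Irf1, which is induced early and in turn switches on many GTPase genes, had a lowest, median and highest level of 19.1, 21.7 and 23.7 CPM in BPH_vehicle and 18.4, 24.5 and 49.8 CPM in BPN_vehicle. The groups overlapped, and the log2 difference was -0.31 ± 0.14 (SE; edgeR adjusted p = 0.138). Without BPN_vehicle replicate 7 it was -0.10 ± 0.09. Stat2, a part of the ISRE-binding complex, had 11, 11.9 and 12.9 CPM in BPH_vehicle, against 9.70, 14.3 and 28.2 CPM in BPN_vehicle. The upper end of BPN_vehicle was again replicate 7, and the log2 difference of Stat2 was -0.29 ± 0.16 with it and -0.08 ± 0.11 without it. Irf7, which drives type I interferon genes themselves, had 4.0, 6.46 and 11.7 CPM in BPH_Cmpd17b, while the 5 BPN_Cmpd17b mice had 5.10, 5.27, 3.77, 5.71 and 4.50 CPM. Of the BPH_Cmpd17b mice 5 of 6 lay above every BPN_Cmpd17b mouse. For Irf7 the log2 difference was 0.58 ± 0.24 with 25 libraries (edgeR adjusted p = 0.123) and 0.56 ± 0.19 with 24 (adjusted p = 0.0411). BPN_vehicle replicate 7, left out of the 24, is in neither group of this comparison. The 11.7 CPM was BPH_Cmpd17b replicate 4, against at most 6.71 CPM in the rest of its group. The difference without replicate 4 is not given here.

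Among the 6 tested sensors of nucleic acid, Eif2ak2 alone was called in the strain comparisons, and it was higher in BPH/2J in both. Eif2ak2 encodes PKR, the kinase that halts translation when it binds double-stranded RNA. On vehicle its lowest, median and highest levels were 17.3, 19.2 and 23 CPM in BPH_vehicle and 11.2, 12.8 and 14.8 CPM in BPN_vehicle. All 7 BPH_vehicle mice lay above every BPN_vehicle mouse. This gave a log2 difference of 0.61 ± 0.09, a 1.53-fold level (edgeR adjusted p = 7.38e-06). On Cmpd17b, BPH/2J mice had 19, 20.6 and 22.8 CPM and the BPN/3J mice 11.7, 10.7, 12.9, 15.2 and 10.3 CPM. Again the groups were fully apart. That difference was 0.79 ± 0.10, or 1.73-fold (edgeR adjusted p = 1.52e-06). BPN_vehicle replicate 7, high for most of the interferon genes, had 14.3 CPM of Eif2ak2, within the range of its group. Ifih1, which encodes the RNA sensor MDA5, showed little strain difference: 5.33, 5.67 and 7.61 CPM in BPH_vehicle and 4.66, 6.04 and 9.50 CPM in BPN_vehicle, with a log2 difference of -0.05 ± 0.14 and a 95% interval of -0.34 to 0.24. The other 4 tested sensors had log2 differences on vehicle between -0.74 (Zbp1, a sensor of Z-form nucleic acid at under 1 CPM in every library) and 0.10 (Oas1a, an oligoadenylate synthetase), none of them called.

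None of the 11 antiviral effectors was called in either strain comparison with 25 libraries. Their log2 differences ran from -0.59 (Mx2) to 0.39 (Ifit1) on vehicle, with a median of -0.25, and the median was 0.09 without BPN_vehicle replicate 7. Ifit1, whose protein binds viral RNA that lacks the host's cap methylation, had 1.71, 3.0 and 3.79 CPM in BPH_vehicle and 1.41, 2.02 and 3.52 CPM in BPN_vehicle. Without replicate 7 the highest BPN_vehicle level was 2.10 CPM, and 5 of 7 BPH_vehicle mice lay above it. On Cmpd17b the levels were 1.43, 3.01 and 5.65 CPM in BPH/2J and 1.46, 1.73, 2.01, 2.02 and 2.11 CPM in BPN/3J. The log2 differences of Ifit1 were 0.39 ± 0.24 on vehicle (edgeR adjusted p = 0.287) and 0.71 ± 0.28 on Cmpd17b (adjusted p = 0.0946). Ifit2 and Ifit3, members of the same tetratricopeptide repeat family and neighbours in the genome, had log2 differences of 0.03 ± 0.14 and -0.04 ± 0.24 on vehicle. On Cmpd17b those values were 0.35 ± 0.16 for Ifit2 and 0.38 ± 0.28 for Ifit3, neither called. Samd9l, an antiviral restriction factor, had 9.89, 11.1 and 12.8 CPM in BPH_vehicle and 9.28, 9.64 and 23.3 CPM in BPN_vehicle. Its highest value was BPN_vehicle replicate 7, with the other 6 mice at or under 11.2 CPM. With 24 libraries Isg20, an RNA exonuclease, and Mx2, a dynamin-like GTPase, were called lower in BPH_Cmpd17b, at -0.54 ± 0.18 and -0.68 ± 0.25 (adjusted p = 0.0342 and 0.0476). The mouse left out of those 24 is in neither Cmpd17b group.

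Of the 7 interferon-inducible GTPases 5 were called on vehicle with 25 libraries, 4 lower and 1 higher in BPH/2J, where 18.9% of all genes were called. On Cmpd17b 0 of the 7 were called, against 14.1% of all genes. With 24 libraries the counts were 3 on vehicle (1 higher and 2 lower) and 4 on Cmpd17b (1 higher and 3 lower). Of all genes, 24.2% and 20.1% were called in those fits. Igtp (Irgm3), an immunity-related GTPase induced by interferon gamma, had 5.92, 8.99 and 12 CPM in BPH_vehicle and 13.7, 17.7 and 22.5 CPM in BPN_vehicle. All 7 BPH_vehicle mice lay below every BPN_vehicle mouse. The log2 difference was -0.96 ± 0.33 (0.514-fold; edgeR adjusted p = 0.0475). The call ended in 13 of the 14 fits that left out 1 mouse of these groups (adjusted p from 0.0214 to 0.0898), while the difference stayed between -1.15 and -0.91. In batch 1 alone it was -1.10 with an adjusted p of 0.0745. On Cmpd17b the 6 BPH/2J mice had 5.85, 6.89 and 37.8 CPM, and the BPN/3J mice 17.9, 16.2, 22.2, 22.7 and 25.1 CPM. Replicate 4, at 37.8 CPM, lay above every BPN_Cmpd17b mouse, and the other 5 BPH_Cmpd17b mice lay below all of them. With replicate 4 the difference was -0.76 ± 0.37 (adjusted p = 0.204), and without it -1.60 (adjusted p = 8.56e-09).

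Guanylate-binding proteins assemble on the membranes of vacuoles that hold pathogens, and 5 of their genes are among the 43. Gbp5, Gbp7 and Gbp3 follow one another on chromosome 3 in the RefSeq annotation of GRCm38.p6, and all of them were lower in BPH_vehicle. Gbp3 had 4.81, 5.43 and 6.09 CPM in BPH_vehicle and 5.95, 7.85 and 19.2 CPM in BPN_vehicle, a log2 difference of -0.76 ± 0.21 (edgeR adjusted p = 0.0116). All but 1 mouse of each group lay outside the range of the other. Gbp5 had 3.94, 4.95 and 5.92 CPM in BPH_vehicle and 3.47, 8.44 and 19 CPM in BPN_vehicle, a difference of -0.85 ± 0.22 (adjusted p = 0.00703). Gbp7 had 9.73, 10.8 and 14.7 CPM in BPH_vehicle, against 12, 14 and 29.5 CPM in BPN_vehicle, a difference of -0.51 ± 0.18 (adjusted p = 0.0434). For Gbp5, 6 of 7 BPN_vehicle mice lay above every BPH_vehicle mouse, and for Gbp7, 6 of 7 BPH_vehicle mice lay below every BPN_vehicle mouse. In all 3 genes the highest BPN_vehicle level was that of replicate 7. Without it the differences were -0.47 for Gbp3 (adjusted p = 0.0224), -0.61 for Gbp5 (0.0211) and -0.28 for Gbp7 (0.113), so the call of Gbp7 ended. It ended in 7 of the 14 fits that left out 1 mouse of these groups (adjusted p from 0.0268 to 0.113). In batch 2 alone, with 2 mice a group, the differences were -0.30, -0.58 and -0.15 for Gbp3, Gbp5 and Gbp7, none called.

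On Cmpd17b the same 3 genes had log2 differences of -0.67 ± 0.24 (Gbp3), -0.55 ± 0.25 (Gbp5) and -0.59 ± 0.20 (Gbp7), with edgeR adjusted p of 0.0676, 0.165 and 0.0529. Gbp3 ran at 4.26, 4.66 and 8.71 CPM in BPH_Cmpd17b, and the BPN_Cmpd17b mice had 9.28, 7.07, 6.51, 10.2 and 9.93 CPM. The 8.71 CPM belonged to replicate 4, and the other 5 BPH_Cmpd17b mice lay below every BPN_Cmpd17b mouse. Without BPN_vehicle replicate 7 in the fit, Gbp3 and Gbp7 were called, at -0.69 ± 0.17 and -0.61 ± 0.14 (adjusted p = 0.00277 and 0.00169). That mouse is in neither group of this comparison. Without BPH_Cmpd17b replicate 4 all 3 were called, at -0.87, -0.80 and -0.71 for Gbp3, Gbp5 and Gbp7.

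Gbp6, on chromosome 5, went the other way. Its levels were 55.4, 61.4 and 69.2 CPM in BPH_vehicle and 21.4, 36.1 and 56.4 CPM in BPN_vehicle, and 6 of 7 BPH_vehicle mice lay above every BPN_vehicle mouse. Gbp6 differed by 0.72 ± 0.16 (1.65-fold; edgeR adjusted p = 0.00196), and 0.62 ± 0.15 without BPN_vehicle replicate 7, which had the lowest level of all 25 libraries. On Cmpd17b the levels were 50.8, 56.7 and 99.2 CPM in BPH/2J and 41.2, 47.2, 37.9, 47.5 and 57.6 CPM in BPN/3J, with a difference of 0.51 ± 0.19 (adjusted p = 0.0721). Without BPN_vehicle replicate 7, which is in neither Cmpd17b group, Gbp6 was called there too, at 0.51 ± 0.17 (adjusted p = 0.0331). The 99.2 CPM was BPH_Cmpd17b replicate 4, and the difference of Gbp6 without that mouse is not given here. Irgm1, which regulates the other immunity-related GTPases, had 12.7, 15.3 and 17.4 CPM in BPH_vehicle and 14.7, 17.2 and 23 CPM in BPN_vehicle, and was not called (-0.17 ± 0.13). Without BPH_Cmpd17b replicate 4 its difference on Cmpd17b was -0.32 (adjusted p = 0.0331). The GTPase genes have close paralogs, so reads shared between near-identical copies leave their counts uncertain.

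The 4 genes of the ISG15 system were not called in either strain comparison, with log2 differences from -0.07 to 0.37 on vehicle and from 0.01 to 0.78 on Cmpd17b. Isg15, the ubiquitin-like modifier, had 1.26, 1.89 and 2.34 CPM in BPH_vehicle and 1.01, 1.89 and 3.84 CPM in BPN_vehicle, and the groups overlapped. The log2 difference was -0.01 ± 0.29, with a 95% interval of -0.60 to 0.58. Herc6, the main ligase for ISG15 in the mouse, had 2.88, 3.54 and 4.24 CPM in BPH_vehicle and 2.39, 3.11 and 7.84 CPM in BPN_vehicle. Trim25, a ubiquitin ligase that activates the RNA sensor RIG-I, had 28.4, 32.3 and 35.6 CPM in BPH_vehicle, against 25.7, 33.5 and 60.9 CPM in BPN_vehicle. In these genes too the top of the BPN_vehicle range was replicate 7. Usp18, which removes ISG15 and dampens receptor signalling, differed by 0.78 ± 0.31 on Cmpd17b (edgeR adjusted p = 0.0966).

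Dtx3l, a ubiquitin ligase that works in a complex with PARP9, was higher in BPH/2J in both strain comparisons. On vehicle it had 15.1, 16.5 and 20.7 CPM in BPH/2J and 10.8, 13.3 and 15.2 CPM in BPN/3J. All but 1 mouse of each group lay outside the range of the other. Its log2 difference was 0.39 ± 0.08 (1.31-fold; edgeR adjusted p = 0.000999). On Cmpd17b it had 16.3, 17.6 and 19.8 CPM in BPH/2J and 14.7, 15.4, 14.2, 12.1 and 15.6 CPM in BPN/3J, a difference of 0.33 ± 0.10 (adjusted p = 0.0195). All 6 BPH_Cmpd17b mice lay above every BPN_Cmpd17b mouse. That second call ended without BPH_Cmpd17b replicate 4 (adjusted p = 0.0543) and without BPN_Cmpd17b replicate 4 (0.0793). In the RefSeq annotation Dtx3l lies between Parp9 and Parp14 on chromosome 16. Parp9, the ADP-ribosyltransferase partner of Dtx3l, had a difference of -0.29 ± 0.11 on vehicle (adjusted p = 0.0586). Parp14, another ADP-ribosyltransferase, had 16.2, 19.1 and 24.2 CPM in BPH_vehicle and 17.2, 21.9 and 45.6 CPM in BPN_vehicle, and a difference of -0.28 ± 0.19 (adjusted p = 0.346).

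Xaf1 and Ifi35 carried the widest strain differences of the 43 genes, in opposite directions and in both treatments. Xaf1, an interferon-induced promoter of apoptosis that binds XIAP, had 4.98, 6.51 and 7.27 CPM in BPH_vehicle and 17.8, 21.2 and 40.1 CPM in BPN_vehicle. All 7 BPH_vehicle mice lay below every BPN_vehicle mouse. The log2 difference was -1.96 ± 0.14 (0.257-fold; edgeR adjusted p = 5.83e-12). On Cmpd17b, Xaf1 had 5.86, 6.46 and 8.76 CPM in BPH/2J and 20.8, 21.2, 21.8, 23.9 and 19.6 CPM in BPN/3J, a difference of -1.62 ± 0.15 (0.325-fold; adjusted p = 3.71e-09). Again no mouse overlapped. Ifi35, a leucine zipper protein induced by interferon, had 13.3, 15.6 and 20.7 CPM in BPH_vehicle and 4.92, 5.49 and 11 CPM in BPN_vehicle. The lowest BPH_vehicle mouse lay above BPN_vehicle replicate 7, which was itself well above the other 6 mice of its group. The difference was 1.40 ± 0.13 (2.63-fold; adjusted p = 3.73e-09). On Cmpd17b, Ifi35 had 12.8, 16.5 and 19.7 CPM in BPH/2J and 6.10, 5.79, 5.14, 6.66 and 5.54 CPM in BPN/3J, a difference of 1.52 ± 0.15 (2.88-fold; adjusted p = 1.53e-08).

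Both genes kept these directions and calls in batch 1 alone, in batch 2 alone (vehicle groups only) and in every fit that left out 1 mouse. In batch 2 alone, with 2 mice a group on vehicle, the differences were -1.60 for Xaf1 and 1.61 for Ifi35 (edgeR adjusted p = 0.000755 and 0.000539). Sp100, a component of nuclear bodies, had 19.5, 22.3 and 25.9 CPM in BPH_vehicle and 15.9, 18.8 and 45.4 CPM in BPN_vehicle, with a difference of 0.06 ± 0.15. Without BPN_vehicle replicate 7, at 45.4 CPM, the BPN_vehicle mice reached at most 21.2 CPM and the difference was 0.32 ± 0.07 (adjusted p = 0.00140). Ifi27, a small membrane protein, had 11.2, 13.5 and 15.5 CPM in BPH_vehicle and 10.7, 12.8 and 22.1 CPM in BPN_vehicle and was not called (-0.08 ± 0.13).

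**Figure D3:**
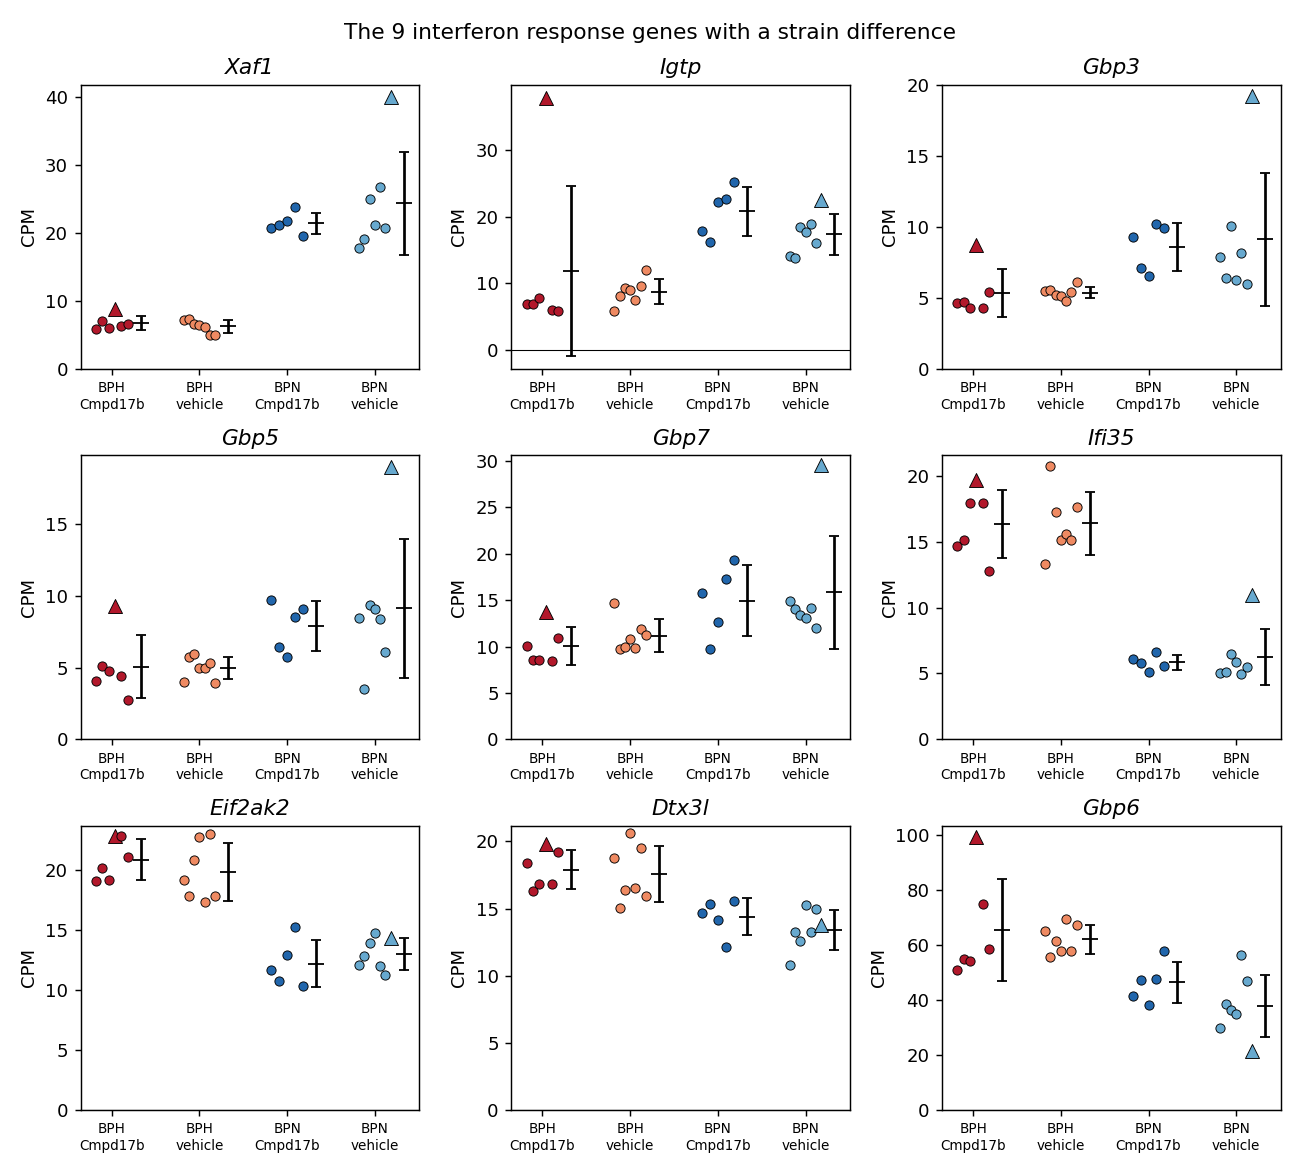
CPM of the 9 interferon response genes called in a strain comparison; each point is 1 mouse, the horizontal mark and bar beside each group are its mean and SD, and triangles mark BPH_Cmpd17b replicate 4 and BPN_vehicle replicate 7. For Xaf1 every BPH/2J mouse lies at or under 8.76 CPM and every BPN/3J mouse at or above 17.8 CPM. For Igtp the single BPH_Cmpd17b mouse at 37.8 CPM lies above all others.

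In BPH/2J ventricles no interferon gene passed the test for an effect of Cmpd17b. The count was 0 of 43 with edgeR, where 0% of all 15543 genes were called, and 0 of 43 with DESeq2. At an unadjusted p under 0.05 the count was 0 of 43, and 1.85% of all genes passed. The median log2 difference was -0.00, with 21 positive and 22 negative values. Without BPH_Cmpd17b replicate 4 it was -0.11, with 7 positive and 36 negative values, so the balance of signs turned on that mouse, and 0 genes were called. The 95% interval lay within ±1 on the log2 scale for 40 of the 43 genes, which bounds the change of these to less than 2-fold, and for the other 3 genes a 2-fold change is within the interval.

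For the genes that separate the strains, the drug contrasts in BPH/2J were small. Xaf1 had 5.86, 6.46 and 8.76 CPM in BPH_Cmpd17b and 4.98, 6.51 and 7.27 CPM in BPH_vehicle, a log2 difference of 0.09 ± 0.14 with a 95% interval of -0.20 to 0.39. Ifi35 differed by -0.04 ± 0.13 (interval -0.32 to 0.23). Eif2ak2 differed by 0.06 ± 0.09 (interval -0.12 to 0.25). Of the 9 genes called between strains Igtp had the widest interval. Its difference was 0.37 ± 0.35 with an interval of -0.37 to 1.10, and 1 BPH_Cmpd17b mouse lay above and 1 below every BPH_vehicle mouse. Isg15 ran at 0.629, 2.16 and 3.44 CPM in BPH_Cmpd17b and 1.26, 1.89 and 2.34 CPM in BPH_vehicle, an interval of -0.54 to 0.69. All 43 intervals held 0.

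In BPN/3J ventricles Cmpd17b also gave 0 called interferon genes with edgeR, where 0% of all genes were called, and 0 with DESeq2. At an unadjusted p under 0.05 there was 1 of 43, against 9.69% of all genes. It was Bst2, the tetherin gene that holds budding virions at the cell surface, at 7.82, 9.78, 5.97, 8.53 and 8.23 CPM in BPN_Cmpd17b, with a lowest, median and highest level of 8.14, 9.04 and 20.3 CPM in BPN_vehicle. The log2 difference of Bst2 was -0.52 ± 0.20 (adjusted p = 0.514), and -0.29 ± 0.15 without BPN_vehicle replicate 7. Over the 43 genes the median was -0.19, with 4 positive and 39 negative values, beside -0.01 over all genes tested. Without BPN_vehicle replicate 7 the median was 0.03, with 25 positive and 18 negative values. The predominance of negative values in BPN/3J thus turned on a single vehicle mouse. The interval lay within ±1 for 37 of the 43 genes with 25 libraries and for 40 with 24.

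Among the named genes in BPN/3J, Irf7 had 5.10, 5.27, 3.77, 5.71 and 4.50 CPM in BPN_Cmpd17b, against 3.47, 5.35 and 12.5 CPM in BPN_vehicle. Its difference was -0.44 ± 0.24 with 25 libraries and -0.17 ± 0.20 with 24. The vehicle range again ended at replicate 7. Xaf1 differed by -0.25 ± 0.14 (24 libraries, -0.08 ± 0.11). Gbp6 and Igtp, at 0.28 ± 0.18 and 0.17 ± 0.36, had the most positive values and were not called.

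**Figure D4:**
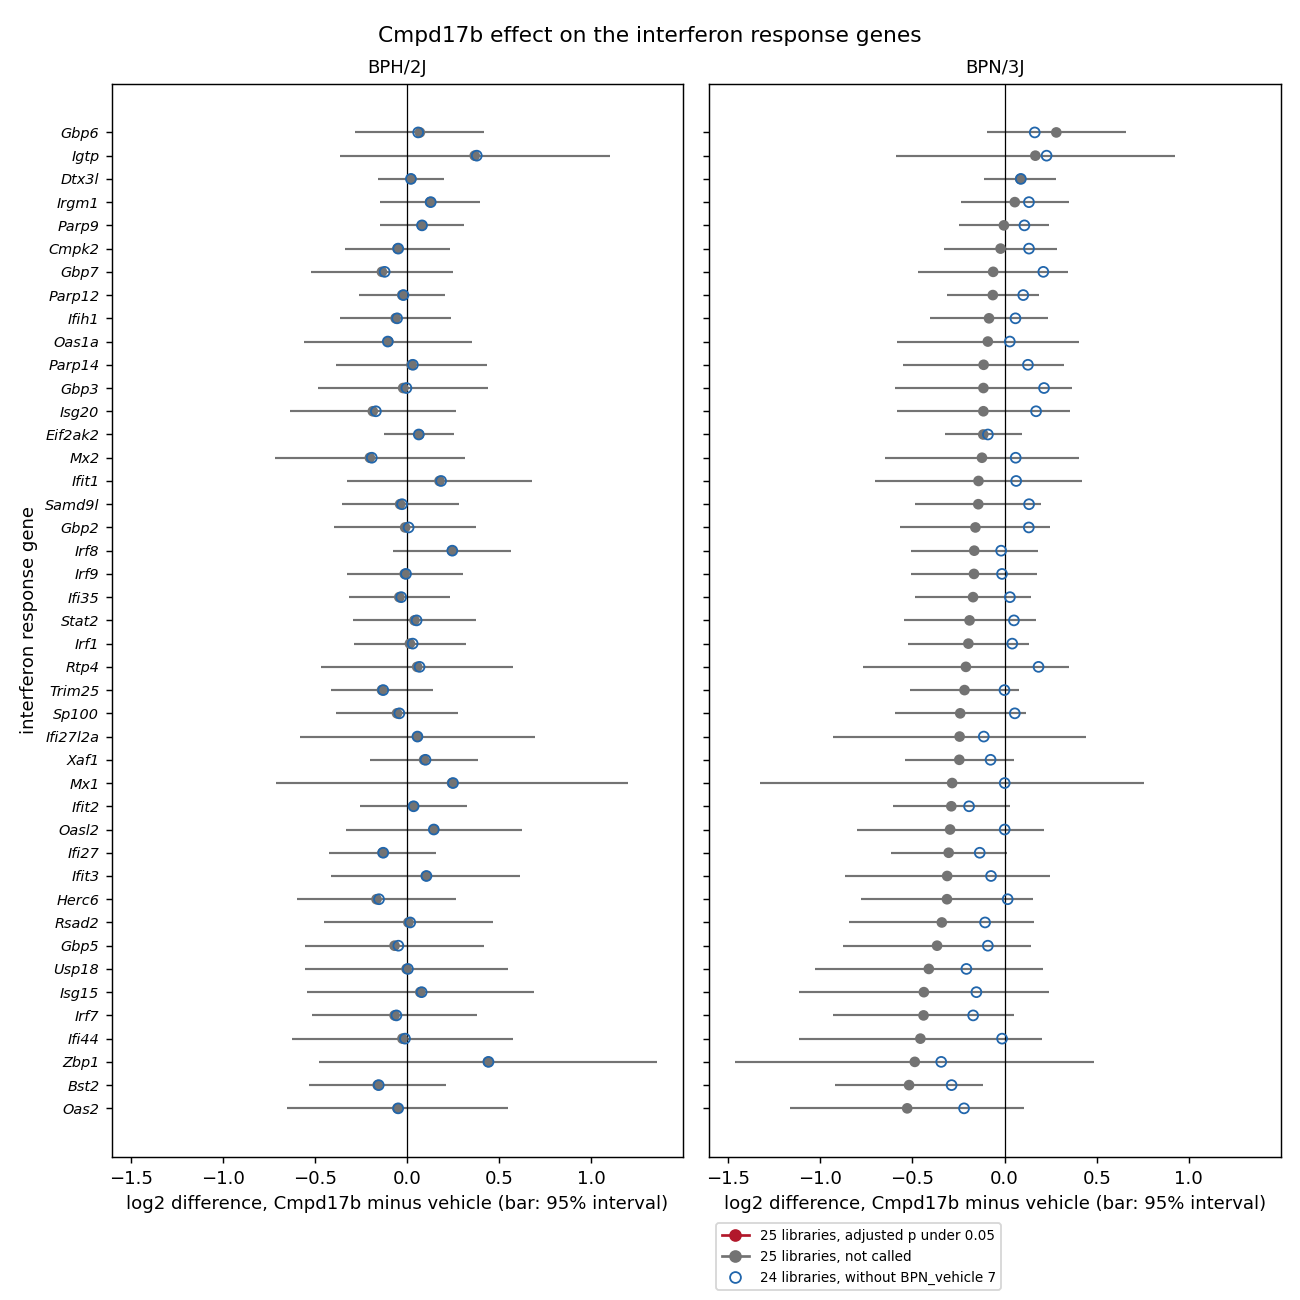
Points are log2 differences, Cmpd17b minus vehicle, of the 43 tested interferon response genes in BPH/2J (left) and BPN/3J (right) with 25 libraries; bars are 95% intervals and open circles give the value without BPN_vehicle replicate 7. No gene is red, the colour of an adjusted p under 0.05. In BPN/3J 39 of the 43 points lie left of 0, against 18 of the 43 open circles.

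The difference between the strains in their response to Cmpd17b was tested as an interaction. It gave 0 called interferon genes with edgeR, where 0% of all genes were called, with 0 of 43 at an unadjusted p under 0.05 (3.83% of all genes) and 0 with DESeq2. The median over the 43 genes was 0.19, with 36 positive and 7 negative values, and 0.00 without BPN_vehicle replicate 7, with 22 positive and 21 negative values. The intervals are wide: 29 of 43 lay within ±1. For Xaf1 the interaction was 0.34 ± 0.20 (interval -0.07 to 0.75) and for Ifi35 0.13 ± 0.20 (interval -0.28 to 0.54). The drug contrasts share their vehicle mice with the strain comparison on vehicle.

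A single vehicle-treated normotensive mouse, BPN_vehicle replicate 7, had the broadest elevation of the interferon genes. It was the highest of 25 libraries for 31 of the 43 genes, as it was for 22.6% of all genes tested. Relative to the median of the other 6 BPN_vehicle mice, its level was over 1.5-fold for 37 genes (23.5% of all genes) and over 2-fold for 26 (10.8%). The median ratio over the 43 genes was 2.10, beside 1.01 over all genes. Ifi44, an interferon-induced cytoplasmic protein, had the highest ratio, 3.06. Gbp6 was the 1 gene below the rest of the group, at 0.573. Of the other genes called between strains on vehicle, Dtx3l and Eif2ak2 had ratios of 1.04 and 1.15, and Igtp and Xaf1 of 1.33 and 1.91. Gbp3, Gbp5, Gbp7 and Ifi35 were each over 2-fold.

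Other features of this mouse were set beside its interferon levels. The summed level of 5 endothelial markers (Pecam1, Cdh5, Kdr, Tie1 and Emcn) was 1126 CPM, against 426 to 540 CPM in the other 6 BPN_vehicle mice, and was the highest of 25. All 5 of these markers were detected in all 25 libraries. The sum of 4 fibroblast markers was 853 CPM, against 545 to 642 CPM. Most of it was Dcn, at 678 CPM the highest of 25. Pdgfra, Lum and Col1a1 had 32.6, 76.5 and 66.6 CPM, where the highest of the 25 libraries had 36.7, 104 and 305 CPM. The sum of 3 erythrocyte markers was 1847 CPM, against 534 to 1309 CPM. The 6 macrophage markers summed to 60.4 CPM, rank 24 of 25, and the 4 neutrophil markers to 3.21 CPM, the lowest of 25. Ifngr2, a chain of the interferon gamma receptor, was at 49.5 CPM, against 117 to 169 CPM in the other 24 libraries. The part of these features in the interferon levels was not tested.

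BPH_Cmpd17b replicate 4 was also high for many interferon genes. It was the highest of its group for 36 of the 43 genes, a count with no share over all genes beside it. Of all 25 libraries it was the highest for 7, and for 2.17% of all genes tested. The median ratio to the other 5 BPH_Cmpd17b mice was 1.47, and 21 genes were over 1.5-fold, against 4.62% of all genes. Igtp was at 5.51-fold, with 37.8 CPM, against 5.85 to 7.84 CPM in the other 5 mice. The next highest ratios were 3.43 for Zbp1, 2.96 for Ifi27l2a, another small interferon-induced membrane protein, and 2.13 for Parp14. Irgm1 was at 29.3 CPM, against 13.7 to 16.1 CPM, and Gbp6 at 99.2 CPM, against 50.8 to 74.9 CPM. Trim25, at a ratio of 1.02, and Irf1, at 1.16, were close to the rest of the group. In this mouse the 5 endothelial markers summed to 485 CPM (rank 21 of 25), the 6 macrophage markers to 90.3 CPM (rank 2) and the 5 T cell markers to 0.954 CPM (rank 24). The part of these in the interferon levels was not tested.

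**Figure D5:**
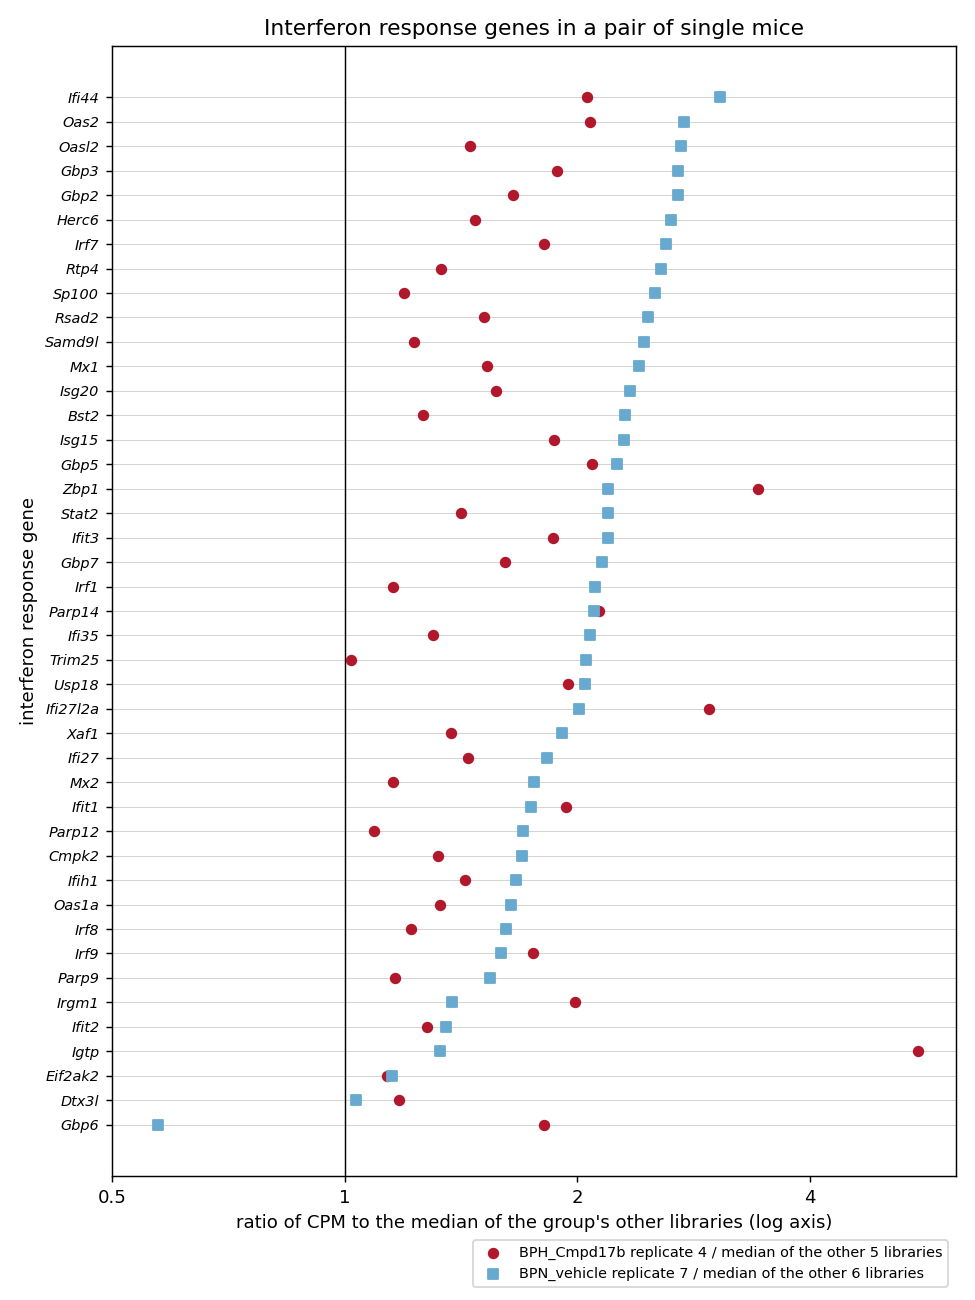
CPM of each of the 43 tested interferon response genes in a single mouse, divided by the median of the other mice of its group, on a log axis: circles are BPH_Cmpd17b replicate 4 and squares BPN_vehicle replicate 7. Squares lie above a ratio of 1.5 for 37 genes and circles for 21. Igtp is at 5.51 in BPH_Cmpd17b replicate 4, and Gbp6 at 0.573 in BPN_vehicle replicate 7.

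Of 49 further genes of the interferon pathway, listed apart from the 44, 29 were tested. The 20 interferon genes themselves were all below the filter: 18 had no count in any of the 25 libraries and the largest count was 2. Ifnb1 was at 0 in all libraries. Ifng had at most 0.0513 CPM, in a BPN_Cmpd17b mouse, and at most 1 count in BPH_Cmpd17b. At counts this low no difference between groups was detectable.

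Of the 6 receptor chains, 3 differed by strain in both treatments. Ifnar2, the high-affinity chain for type I interferon, had 25.1, 28.4 and 30.9 CPM in BPH_vehicle and 20.03, 21.2 and 29.7 CPM in BPN_vehicle, a log2 difference of 0.30 ± 0.07 (edgeR adjusted p = 0.00180). On Cmpd17b it had 26.7, 27.9 and 29.5 CPM in BPH/2J and 22, 20.04, 21.6, 20.8 and 20.6 CPM in BPN/3J, with no overlap and a difference of 0.43 ± 0.08 (adjusted p = 0.000211). Ifnlr1, the specific chain for type III interferon, was also higher in BPH/2J, by 0.72 ± 0.18 on vehicle and 0.97 ± 0.21 on Cmpd17b (adjusted p = 0.00491 and 0.00154). Il10rb, the chain that IFNLR1 pairs with and that also serves interleukin-10, was lower. Its levels were 66.6, 71.9 and 74.1 CPM in BPH_vehicle and 65.2, 108 and 117 CPM in BPN_vehicle, where the 65.2 CPM was replicate 7. The differences were -0.55 ± 0.09 on vehicle and -0.64 ± 0.11 on Cmpd17b (adjusted p = 6.89e-05 and 6.21e-05). Ifnar1, Ifngr1 and Ifngr2 were not called with 25 libraries, at 0.08 ± 0.10, -0.01 ± 0.08 and 0.03 ± 0.15 on vehicle.

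None of the 7 signal transducers, 11 sensors and adaptors and 5 negative regulators was called in a strain comparison with 25 libraries. Of the 29 pathway genes 3 were called in each comparison (10.3%), against 18.9% of all genes on vehicle and 14.1% on Cmpd17b. In the fit of 24 libraries 6 were called on vehicle (20.7%, against 24.2%) and 5 on Cmpd17b (17.2%, against 20.1%). With 24 libraries Mavs, the mitochondrial adaptor of the RNA sensors, was lower in BPH/2J, with log2 differences of -0.43 on vehicle and -0.26 on Cmpd17b. In the same fit Ifnar1 was higher, by 0.21 in both comparisons, and Tbk1, the kinase downstream of Mavs, was higher on vehicle, by 0.20.

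Markers of immune cells, which also express interferon genes, were set beside the strain differences. Of 5 natural killer cell markers, 3 were called higher in BPH_vehicle and 4 in BPH_Cmpd17b, beside 9.16% and 7.48% of all genes. These markers were at low levels: none exceeded 1.47 CPM in any library, and only 1 of the 5 was detected in all 25. Their summed levels were 1.62 to 3.62 CPM in BPH_vehicle and 0.362 to 0.881 CPM in BPN_vehicle. On Cmpd17b the sums were 1.51 to 2.71 CPM in BPH/2J and 0.347 to 0.871 CPM in BPN/3J. Of 5 T cell markers 1, Cd4, was lower in BPH/2J in both comparisons. Macrophage markers summed to 66.2 to 89.5 CPM in BPH_vehicle and 56.1 to 83.2 CPM in BPN_vehicle, and of 6 genes Mrc1 was higher on vehicle and Cd163 lower on Cmpd17b. No marker of the monocyte, dendritic cell, plasmacytoid dendritic cell, B cell, neutrophil, endothelial or fibroblast lists was called between the strains with 25 libraries. Of 5 cardiomyocyte markers 1, Tnnt2, was lower in BPH_vehicle. All 4 hepatocyte markers were called lower in BPH_vehicle, beside 9.73% of all genes, and 0 were called on Cmpd17b. Their sums had a lowest, median and highest level of 0.497, 0.808 and 4.13 CPM in BPH_vehicle and 0.131, 9.67 and 479 CPM in BPN_vehicle, with BPN_vehicle replicate 7 at 1.07 CPM. Bst2 is itself on the plasmacytoid list. The part of these cell types in the interferon gene differences was not tested.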

How the data were processed

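The deposited table holds estimated counts per gene and library, made by the authors. Trim Galore 0.6.7, STAR 2.7.9a and the build GRCm39 (mm39) are named, without roles, in the submitters' processing notes. How reads were assigned to genes, whether strand was used and with which gene models was not stated there. Of the values 93.3% were whole, and all were rounded. The notes name 1 build for both strains, and how far sequence differences from it affect a strain's counts was not tested. Library totals of 25476100 to 48648200 counts set the precision: at 1 CPM a gene rests on few counts.

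Groups came from the labels' strain and treatment, and each label carries its own animal identifier. No 2 libraries among 67 pairs within groups were identical, and no column was left unmapped. The fit used 25 libraries (R 4.3.3, edgeR 4.0.16): low-count filter, TMM scaling, a group and batch term, the robust quasi-likelihood F-test, and Benjamini-Hochberg adjustment over 15543 genes, with calls at an adjusted p under 0.05. Values in CPM are TMM-scaled, fold changes are log2, errors are SE of the fit, and intervals are 95%. The filter, the fit and the adjustment ran on all genes, and the procedure was tested on simulated data. DESeq2 1.42.0 was an alternative, as were 26 and 24 libraries, RLE scaling, 2 other filters, a fit with no batch term, batch 1 alone, fits of only the groups compared, and leaving out 1 mouse at a time. Batch 2 alone, and the fit without BPH_Cmpd17b replicate 4 in every comparison, were added after seeing the data.

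The interferon genes, pathway genes and marker lists were chosen with earlier results of these data known. Genes named with values were those called in any comparison, the 2 with the highest mean log2 CPM in each role, and Isg15, Irf7, Ifit1 and Ifit3. Bst2, Gbp2, Ifi27l2a, Ifi44, Isg20, Mx2, Oas1a, Parp9, Rsad2, Usp18 and Zbp1 fall outside that rule and were named after their values were seen. Promoter windows came from RefSeq on GRCm38.p6, which is not the build of the counts, and no coordinates were converted. The groups carry replicate numbers in accession order, which pair no mice. The values of 1 pathway gene are not reported here.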

Additional observations from a re-analysis of the deposited data

Results flagged for a closer look

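Within each group of 5 to 7 mice, the highest and the lowest value of each named gene were set against the rest of the group with Dixon's test. Of 96 such tests 24 (25%) passed the 95% critical value. The tests share mice and genes that move together, and some genes were named for their calls in these data. The test was not run over all genes, so this share has no background beside it. BPN_vehicle replicate 7 accounted for 16 of the 24, all of them high. BPH_Cmpd17b replicate 4 accounted for 5, also high.

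In BPN_vehicle replicate 7 the GTPase genes Gbp3, Gbp5 and Gbp7 stood at 19.2, 18.98 and 29.5 CPM, against at most 10.1, 9.38 and 14.9 CPM in the other 6 mice. The transcription factor genes Irf1, Stat2 and Irf7 stood at 49.8, 28.2 and 12.5 CPM, against at most 25.6, 15.4 and 7.22 CPM. Ifih1, Samd9l and Ifit1 had 9.50, 23.3 and 3.52 CPM, against at most 6.65, 11.2 and 2.10 CPM. Trim25, Herc6 and Isg15 had 60.9, 7.84 and 3.84 CPM, against at most 34.1, 4.26 and 2.21 CPM. Parp14 and Sp100 had 45.6 and 45.4 CPM, against at most 23.7 and 21.2 CPM. Xaf1 and Ifi35, which separate the strains, had 40.1 and 10.98 CPM, against at most 26.9 and 6.44 CPM in the other BPN_vehicle mice.

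In BPH_Cmpd17b replicate 4, Igtp was at 37.8 CPM, against 5.85 to 7.84 CPM in the other 5 mice, and Irgm1 at 29.3 CPM, against 13.7 to 16.1 CPM. Gbp3 and Gbp5 were at 8.71 and 9.26 CPM, against at most 5.38 and 5.14 CPM, and Irf7 at 11.7 CPM, against at most 6.71 CPM. The other 3 single values were Gbp7 at 14.7 CPM in BPH_vehicle replicate 1 (other mice 9.73 to 11.9 CPM), Herc6 at 3.88 CPM in BPN_Cmpd17b replicate 1 (other mice 2.74 to 2.84 CPM) and Trim25 at 27.6 CPM in BPN_Cmpd17b replicate 5 (other mice 30.3 to 31.3 CPM).

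The kidney-like library labelled BPH_Cmpd17b replicate 7, which enters no comparison, exceeded all 25 ventricular libraries for 2 of the 43 genes, with all 26 libraries scaled together, so that ranges differ slightly from those of the 25-library scaling. Samd9l was at 63.7 CPM there, against 9.20 to 23.7 CPM, and Rsad2, which encodes the antiviral protein viperin, at 8.14 CPM, against 1.69 to 7.07 CPM. Of the other genes 28 lay below all 25 libraries and 13 within their range. The shares of all genes above and below that range are not given here, so these counts have no background beside them.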

How the results depend on the processing

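No interferon gene named in the text changed direction where it was called, under any alternative run. On vehicle the count of called genes was 9, with 4 when the kidney-like library was kept (26 libraries) and 4 in batch 2 alone. On Cmpd17b it was 4, with 11 for 24 libraries, 7 with DESeq2 and 8 without BPH_Cmpd17b replicate 4. The DESeq2 count over all genes is not given for this comparison. Leaving out 1 mouse at a time gave 7 to 12 genes on vehicle and 3 to 8 on Cmpd17b. On Cmpd17b, 8 came without BPH_Cmpd17b replicate 1 and 3 without BPN_Cmpd17b replicate 4. The same fits called 2598 to 3751 of all genes on vehicle and 1834 to 2066 on Cmpd17b. The cause of these shifts was not tested. The drug contrasts and the interaction had 0 called interferon genes under every alternative run. Over all genes, 26 libraries gave 1492 on vehicle and 1195 on Cmpd17b, against 2936 and 2197 with 25, batch 2 alone gave 1168 on vehicle, and DESeq2 called 1 gene for Cmpd17b in BPN/3J, against 0 with edgeR. Batch 2 alone could give no strain value on Cmpd17b, since all BPN_Cmpd17b mice were in batch 1. No paired analysis was possible because the replicate numbers only follow accession order. Reads shared between paralogs limit the GTPase, Ifit, Oas and Mx genes.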
